A study of Mus musculus with 4 samples.

Results

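The cells described here were hematopoietic progenitors of untreated mice that carried transcripts of neutrophil primary granule genes, and they were selected on those transcripts. A cell was a member when at least 1 unique molecular identifier (UMI, 1 counted RNA molecule) of at least 3 of the 5 genes Mpo, Elane, Ctsg, Prtn3 and Ms4a3 had been counted in it. These 5 are called the rule genes below. Members numbered 2093 of 16207 cells with a single genotype tag at homeostasis (12.9%), and the other 14114 tagged cells served as the comparison. Both matrices of the series together held 36684 cells. The sorted population was LSK (Lineage-, Sca-1+, cKit+) from bone marrow, which includes hematopoietic stem cells and multipotent progenitors, and it was profiled by single-cell RNA-Seq. All mice were C57BL/6, and those of the homeostasis experiment were untreated males (age not given in the sources used here). Wild-type animals were Sin3B F/F, with both Sin3B alleles floxed and no Cre. Knockout animals were Sin3B F/F; Vav1-iCre, in which Cre is driven by a promoter active in blood cells from embryonic life on, so Cre acted across blood lineages and not in these cells alone. LSK cells of 2 mice per genotype were pooled, each pool was stained with its own hashtag antibody, and both were loaded into 1 reaction. There was thus 1 pool per genotype and no test of a genotype difference was possible: levels are UMIs per 1000000 UMIs of a pool (CPM) with exact Poisson intervals, shares carry exact Clopper-Pearson intervals, and all intervals are at 95% and cover counting error only.

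Neutrophil precursors fill their primary, or azurophil, granules early, at the promyelocyte stage, with myeloperoxidase and with serine proteases stored on a proteoglycan core. Transcription of these genes starts in progenitors that are not yet committed, where the factors C/EBP alpha, PU.1 and RUNX1 act on them. Genes of the specific and gelatinase granules follow later in maturation. Mpo encodes myeloperoxidase, Elane neutrophil elastase, Ctsg cathepsin G and Prtn3 proteinase 3. Ms4a3 encodes a membrane-spanning protein of granulocyte and monocyte progenitors. The name neutrophil-primed was set beside genes that the rule did not use. Their lists were chosen with earlier results of these data known, so this is a description and not an independent check. Of 15 other early neutrophil genes, 12 were higher in members than in other tagged cells and 3 were lower. At least 2-fold higher were 4, against 1.39% of all genes. Some genes of monocytes and basophils were at least 2-fold higher too, while others of their lists were lower. Prtn3 had a UMI in most LSK cells. The cells are therefore called members here, after the rule and not after a cell type. Most of the comparison cells held a granule transcript too: 11.03% of all tagged cells had a UMI of no rule gene.

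The sequence just upstream of each rule gene is given to show what the 5 selected genes have in common at their start sites. Each run holds the 250 bases before the annotated start, read 5′ to 3′ on the gene's strand from RefSeq on GRCm38.p6, and all 5 genes matched an entry. Mpo lies at chr11:87793534-87793783 on the plus strand, Prtn3 at chr10:79879417-79879666 and Elane at chr10:79886062-79886311, both on the plus strand, Ctsg at chr14:56102575-56102824 on the minus strand and Ms4a3 at chr19:11640852-11641101 on the minus strand. Capitals mark AGGAAGT, or GGAAGT where the A before it is missing, letters of the kind bound by ETS family factors such as PU.1.
Mpo: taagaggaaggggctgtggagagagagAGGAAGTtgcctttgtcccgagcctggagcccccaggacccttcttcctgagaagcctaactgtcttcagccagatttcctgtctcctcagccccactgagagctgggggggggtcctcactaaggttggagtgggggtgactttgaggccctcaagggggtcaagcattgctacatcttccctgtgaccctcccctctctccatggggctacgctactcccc
Elane: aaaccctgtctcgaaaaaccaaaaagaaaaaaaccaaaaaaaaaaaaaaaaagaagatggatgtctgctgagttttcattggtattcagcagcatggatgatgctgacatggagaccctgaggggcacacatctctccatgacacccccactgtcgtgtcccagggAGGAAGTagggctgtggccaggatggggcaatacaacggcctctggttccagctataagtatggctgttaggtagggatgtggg
Ctsg: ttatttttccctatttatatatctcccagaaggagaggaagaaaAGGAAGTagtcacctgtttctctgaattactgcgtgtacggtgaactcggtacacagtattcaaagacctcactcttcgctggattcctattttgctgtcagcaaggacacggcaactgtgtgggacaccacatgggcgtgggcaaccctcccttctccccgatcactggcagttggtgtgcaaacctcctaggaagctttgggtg
Prtn3: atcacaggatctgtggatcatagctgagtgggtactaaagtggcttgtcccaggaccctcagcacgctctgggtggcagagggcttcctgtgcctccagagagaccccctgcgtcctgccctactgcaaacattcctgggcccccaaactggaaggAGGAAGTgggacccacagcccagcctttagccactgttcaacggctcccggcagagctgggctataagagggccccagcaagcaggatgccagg
Ms4a3: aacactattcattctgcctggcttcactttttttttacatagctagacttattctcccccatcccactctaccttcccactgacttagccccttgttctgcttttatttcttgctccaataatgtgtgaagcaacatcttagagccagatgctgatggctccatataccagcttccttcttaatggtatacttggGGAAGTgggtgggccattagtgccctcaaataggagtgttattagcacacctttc

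AGGAAGT stood in 4 of the 5 windows (Mpo, Elane, Ctsg and Prtn3), and GGAAGT, which it contains, in all 5. Searched on both strands, AGGAAGT was present in 7.69% of 32851 upstream windows of the same length and GGAAGT in 19.7%. The first base of AGGAAGT lay 84 bases before the start of Elane, 94 before that of Prtn3, 206 before that of Ctsg and 223 before that of Mpo. CAACGG, letters of the kind bound by MYB, stood in the windows of Elane and Prtn3 (4.05% of all windows) at 51 and 56 bases before the start. TTGCNNAA, a C/EBP-type motif, was in none of the 5 windows and in 9.56% of all windows. The motifs were picked after the windows had been read, and a match describes letters and not binding.

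How many cells counted as members depended on depth. Members had a median of 11783 UMIs and 4034 genes, against 6501 UMIs and 2785.5 genes in the other tagged cells. The median mitochondrial share was 2.18% in members and 2.19% in the others. By number of rule genes, 11.03% of tagged cells had a UMI of none, 53.2% of 1, 22.9% of 2, 10.3% of 3, 1.97% of 4 and 0.660% of all 5. The rule thus falls within a gradient: 3710 cells stood just outside it with 2 genes and a median of 8241.5 UMIs, and 1666 of the 2093 members stood just inside it with 3 genes and a median of 11219.5. When every cell was first thinned to 2921 UMIs, the minimum for a cell, 606 tagged cells (3.74%) met the rule. No doublet caller was run, and droplets with 2 cells of the same genotype remained among the tagged cells.

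Transcripts of the rule genes were also counted outside cells. In 56160 near-empty barcodes with 10 to 100 UMIs, Prtn3 was at 257.5 CPM, Mpo at 113.2, Ctsg at 49.8, Elane at 33.6 and Ms4a3 at 10.4. For comparison, 103 tagged cells with a UMI of at least 3 of 10 B cell genes were looked at. These cells had passed the lineage-negative sort, their lineage was not tested, and after thinning 4 of 25 members and 53 of 78 other cells among them still held 3 B cell genes. Of the 103 cells, 25 (24.3%, 16.4 to 33.7) met the rule at a median of 9876 UMIs, and 4 (3.88%, 1.07 to 9.65) met it after thinning. At fixed depth the share over all tagged cells was 3.74%, and 103 cells are too few to set a background level. How much free RNA or mixed droplets add to the members was not tested.

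The levels of the rule genes are what the rule selected and are given as a description. Prtn3, the most abundant, was at 608.3 CPM in members and 342.3 in other tagged cells, and 86.4% of all wild-type tagged cells held a Prtn3 UMI. Mpo was at 458.4 against 51.2 CPM, Ctsg at 289.4 against 8.43, Elane at 145.8 against 2.05 and Ms4a3 at 40.0 against 2.88. Prtn3 was present in 99.9% of members, Mpo in 97.8% and Ctsg in 85.5%, while Ms4a3 was present in 22.8% and Elane in 19.6%. Most members therefore entered by the same combination: of the 1666 with exactly 3 genes, 1331 (79.9%) held Mpo, Ctsg and Prtn3, 175 (10.5%) Mpo, Prtn3 and Ms4a3, and 111 (6.66%) Mpo, Elane and Prtn3. Of the 320 members with 4 genes, 155 lacked only Ms4a3 and 151 lacked only Elane.

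**Figure D1:**
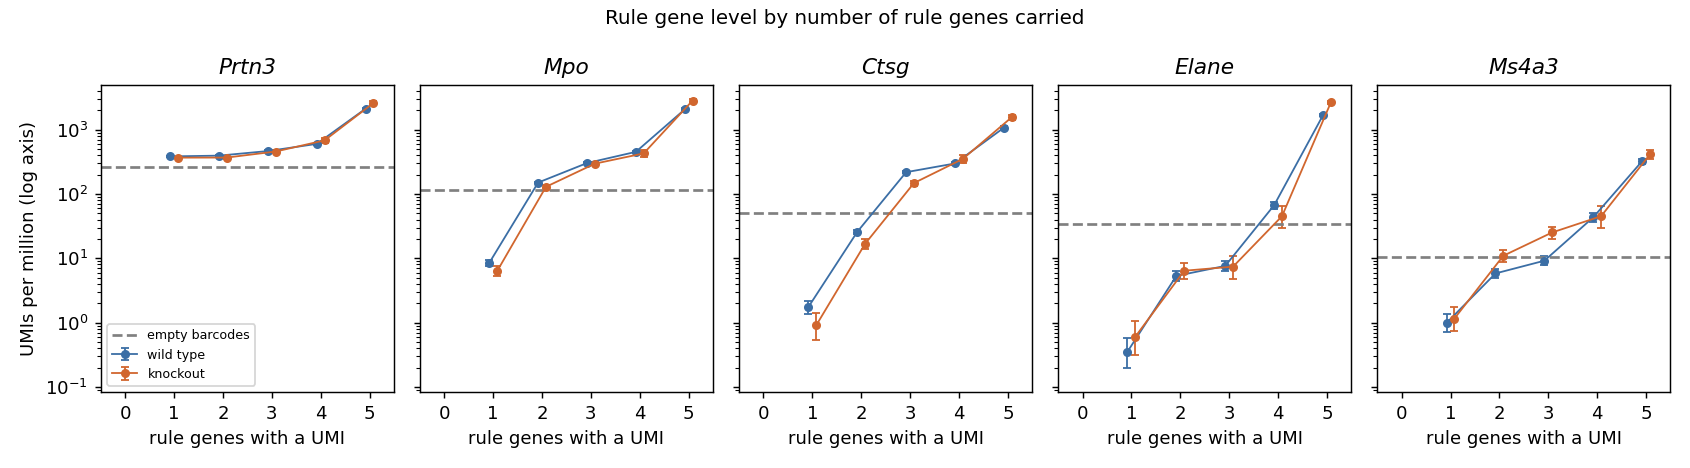
CPM (log axis, 95% Poisson interval) of each rule gene in tagged cells grouped by how many rule genes they carried, for wild-type and knockout cells; the dashed line is the level in near-empty barcodes, and groups with no UMI are not drawn. Elane stayed at or under 7.61 CPM up to 3 rule genes and was at 1672 CPM or more with 5.

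Granule transcripts were concentrated in few cells. The 107 cells with all 5 rule genes held 88.4% of the members' Elane UMIs, 58.6% of Ms4a3, 33.3% of Mpo, 27.8% of Ctsg and 24.99% of Prtn3. The summed level of the 5 genes was 987.9 CPM in members with 3 of them, 1468 with 4 and 7833 with 5. Per cell, the sum ranged from 1.14 to 958.0 UMIs per 10000, with a median of 9.49 and a 90th percentile of 23.1. A single UMI was all that counted as detection for Ctsg in 33.4% of members and for Mpo in 24.5%.

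Other genes of early neutrophils, here called partners, followed the rule genes in part, and not all of them encode granule proteins. Of 15 partners with at least 50 UMIs, 12 were above and 3 below 0 in the log2 ratio of members over other tagged cells, with a median of 0.67, against -0.10 over all 15877 genes. At least 2-fold higher were 4, and 1.39% of all genes were. Hp, which encodes haptoglobin, was at 13.96 CPM in members (373 UMIs) against 1.54 (log2 3.18, 2.91 to 3.45). Slpi, a secreted inhibitor of elastase and cathepsin G, was at 11.8 against 2.44 CPM (log2 2.28). Clec12a, an inhibitory lectin receptor of myeloid cells, was at 44.4 against 14.02 (log2 1.66), and Cst7, an inhibitor of the cathepsins that activate granule proteases, at 36.3 against 11.6 (log2 1.65). Plac8, abundant in myeloid progenitors, was at 1164 against 595.9 CPM (log2 0.97), Nkg7 at 135.3 against 84.8 and Calr, the chaperone of myeloperoxidase, at 432.8 against 249.9. Prss57, another primary granule protease, was under 2-fold, with a log2 ratio of 0.97. Ctsc, the cathepsin that activates the granule proteases, was at 28.8 against 32.7 CPM, and Srgn, the proteoglycan core of the granules, at 794.4 against 766.4. Fcnb, a lectin of early granules, had 32 UMIs in members and 3 in the 14114 other cells, too few for the count above.

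Genes of later granules were rare. Retnlg was at 0 in members, Ly6g, which marks mature neutrophils, at 1 UMI and Mmp9 at 2. Of 10 genes with at least 50 UMIs, 7 were at least 2-fold higher in members, against 1.39% of all genes, but much of this came from single cells. One wild-type member with 9496 UMIs held 1356 of the 2383 S100a8 UMIs of all members, with 1115 of S100a9, 343 of Ngp, 219 of Camp and 44 of Ltf, and had 1 UMI each of Mpo and Ctsg and none of Elane or Prtn3. One knockout member held another 836 of S100a8 beside 259 of Elane and 184 of Prtn3. S100a8 and S100a9 encode the subunits of calprotectin. Any S100a8 UMI was found in 5.02% of members. Cxcr2, the receptor through which mature neutrophils leave the marrow, was spread more evenly, at 4.49 against 1.33 CPM with 3.33% of its UMIs in the cell that held most.

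**Figure D2:**
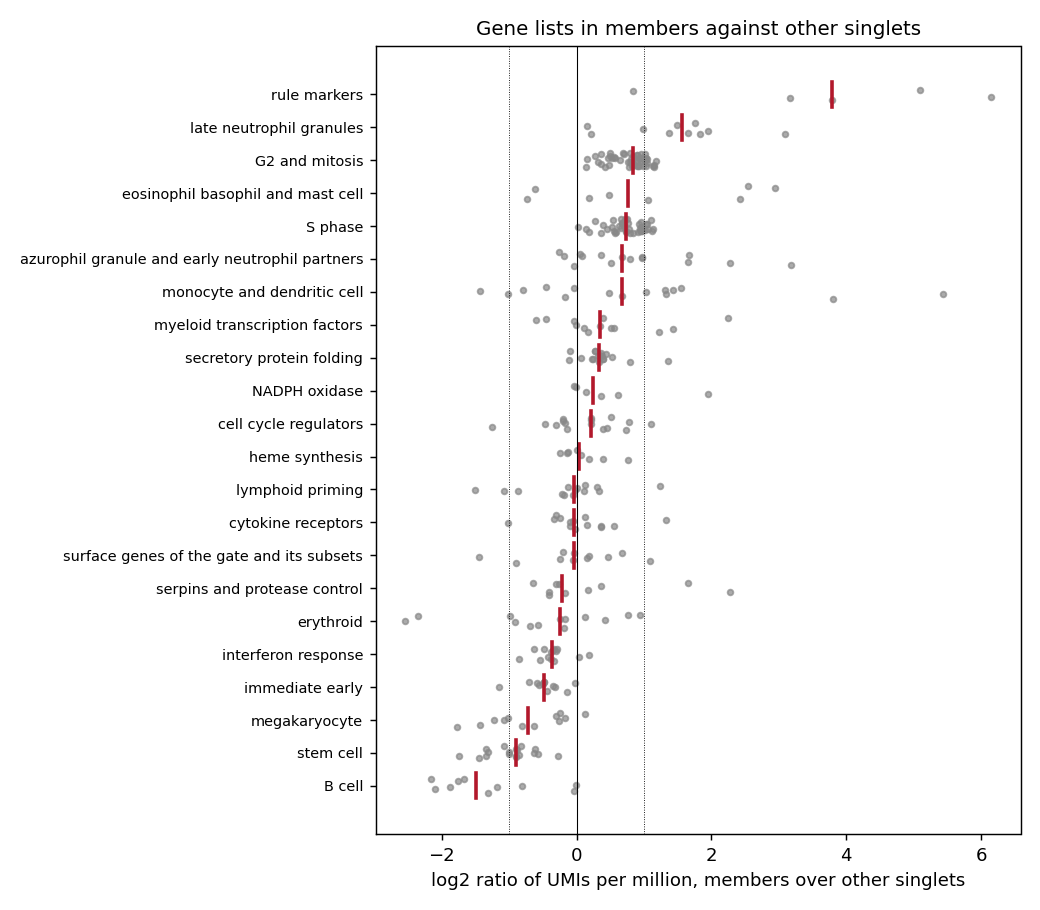
Log2 ratio of CPM in members over other tagged cells for the genes of each list with at least 50 UMIs; each grey point is 1 gene, red bars are list medians, and dotted lines mark a 2-fold difference. All S phase and all G2 and mitosis genes lie above 0 and all stem cell genes below it; the rule markers chose the cells.

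Of 13 transcription factors of the myeloid lineages, 3 were at least 2-fold higher in members and 0 lower, against 1.39% and 5.36% of all genes. Cebpa, which is needed for granulocyte and monocyte progenitors to form, was at 19.5 CPM in members and 8.37 in other tagged cells (log2 1.22, 1.06 to 1.38). Cebpe, which drives the later granules, was at 3.03 against 0.637 CPM (81 UMIs in members, log2 2.25). Irf8, which favours monocytes and dendritic cells, was at 53.7 against 19.9 CPM (log2 1.43). Spi1, encoding PU.1, had a log2 ratio of 0.34 and Myc one of 0.39. Runx1 (0.17), Myb (0.11) and Gfi1 (-0.03), a repressor needed for neutrophils, were nearly level on that scale.

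Of 15 genes in a monocyte and dendritic cell list, 7 were at least 2-fold higher in members and 2 lower, against 1.39% and 5.36% of all genes. Ly6c2, a surface protein of monocytes and of their precursors, was at 20.2 CPM against 0.462 (log2 5.44, 5.03 to 5.90), the highest ratio among genes with at least 200 UMIs outside the rule genes and the immunoglobulin genes named below, yet it had a UMI in 4.06% of members, and 85.9% of its member UMIs were in the cells with 5 rule genes. F13a1, encoding a subunit of coagulation factor XIII made by monocytes, was at 32.6 against 2.32 CPM (log2 3.81), with a UMI in 11.6% of members. Ccr2 (log2 1.55), the chemokine receptor of inflammatory monocytes, Csf1r (1.33), the receptor for macrophage colony-stimulating factor, and Ly86 (1.31) were at least 2-fold higher too. The antigen presentation genes Cd74 (-1.43) and H2-Aa (-1.02) were lower, and Batf3, a factor of dendritic cells, was at 0. After thinning, 12.0% of members (10.6 to 13.5) and 8.72% of other cells (8.26 to 9.20) held at least 3 genes of the list, and at full depth 60.1% and 33.1%.

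Of 8 eosinophil, basophil and mast cell genes with at least 50 UMIs, 4 were at least 2-fold higher in members, against 1.39% of all genes. In the same list 2 were under 0, and the summed level was 147.1 CPM in members against 141.3 in other tagged cells. With the rule applied to thinned cells, 4 of the 8 were above 0. Mcpt8, a protease of basophils, was at 19.4 against 2.51 CPM (log2 2.95) with a UMI in 16.8% of members, Hdc, which makes histamine, at 4.19 against 0.720 (log2 2.54), and Ms4a2, a chain of the receptor for immunoglobulin E, at 2.13 against 0.397 (log2 2.42). Of Ms4a2's 57 UMIs, 45.6% were in 1 cell. The eosinophil granule genes Epx and Prg2 had 0 and 2 UMIs.

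Several of these genes lie next to a rule gene. Prtn3 and Elane are neighbours, 3137 bases apart. Mcpt8 is the neighbour of Ctsg on one side, and the gene on the other side, Gzme, was at 0 in members. Ms4a2 borders Ms4a3. Tspoap1, 7856 bases from Mpo, was at 3.89 CPM against 1.31 (log2 1.57). On the other flank of Mpo, Lpo had 5 UMIs in members and 5 in the others. Beside Prtn3 and Elane, Plppr3 (log2 0.29), Ptbp1 (0.27) and Med16 (-0.02) differed little between members and other cells, and Cfd had 3 and 6 UMIs. Neighbours were looked up after the values had been seen.

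Of 18 genes for protein folding in the endoplasmic reticulum, 1 was at least 2-fold higher in members and 0 lower. Over all genes these shares were 1.39% and 5.36%. Of the 18, 16 were above 0 with a median log2 ratio of 0.34. Sdf2l1, part of the chaperone complex there, was at 34.5 against 13.5 CPM (log2 1.35), Pdia6 at 133.6 against 93.3 and Hspa5, the main chaperone, at 156.6 against 122.0. The summed level of the list was 2382 CPM in members with 3 rule genes, 2685 with 4 and 4852 with 5. Among genes of heme synthesis, which supplies the cofactor of myeloperoxidase, the entry enzyme Alas1 was at 28.2 against 16.7 CPM (log2 0.76), while the median of the 8 genes was 0.04. Of the NADPH oxidase, Cybb was at 2.84 against 0.739 CPM (log2 1.95) and the other 5 genes lay between -0.04 and 0.62. Of 10 genes for protease inhibitors, Slpi and Cst7 were at least 2-fold higher, against 1.39% of all genes, and the median was -0.21.

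Genes of the dividing cell were higher as a whole. All 44 S phase genes and all 52 genes of G2 and mitosis had a log2 ratio above 0, with medians of 0.73 and 0.84. Of them, 7 and 11 were at least 2-fold higher, against 1.39% of all genes. The summed S phase level was 2024 CPM in cells with 1 rule gene, 3579 with 3, 3688 with 4 and 3939 with 5. That of G2 and mitosis was 3367, 6125, 6698 and 6930 CPM. Cells in these phases hold more RNA, and the rule picks deeper cells. With the rule applied to thinned cells, 43 of 44 and 52 of 52 genes were above 0, with medians of 0.71 and 0.76, although those 606 members still had a median of 10900 UMIs before thinning against 6796 in the rest. At a fixed 2921 UMIs, members held a median of 7 S phase genes and other cells 3. What part depth has in this was not tested. Among cell cycle regulators, Cdkn1a (log2 1.10), the p21 inhibitor, was higher and Cdkn1c (-1.25), the p57 inhibitor of quiescent stem cells, lower. Cdk6 was at 1489 against 1132 CPM and Ccnd3 at 388.1 against 536.7.

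**Figure D3:**
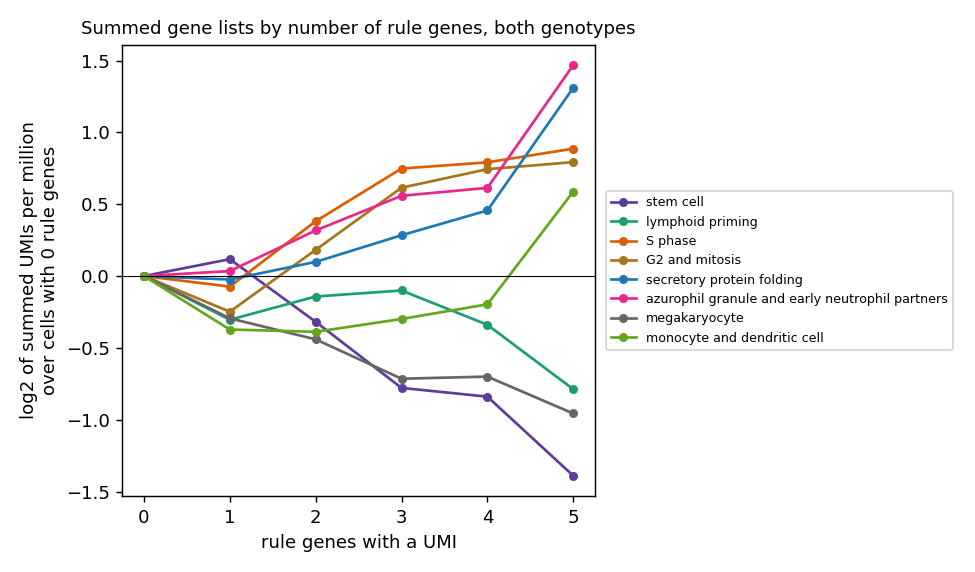
Summed CPM of 8 gene lists in tagged cells of both genotypes by number of rule genes carried, as log2 over cells with 0 rule genes. With 5 rule genes the stem cell list lies lowest and the granule partners and folding genes lie higher than with 4, while the cell cycle lists differ little between 3 and 5.

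Stem cell genes were lower throughout. All 18 had a log2 ratio under 0 with a median of -0.90, and 8 were at least 2-fold lower, against 5.36% of all genes. Procr, which encodes the surface marker EPCR, was at 17.7 CPM in members against 44.2 (log2 -1.32), Slamf1, which encodes CD150, at 3.71 against 10.2 (-1.45), and Hlf, a factor of long-term stem cells, at 352.1 against 655.4 (-0.90). Mecom was at 473.4 against 855.8 CPM and Sult1a1 had a log2 ratio of -1.74. The summed list was at 4158 CPM in cells with 1 rule gene and at 2234, 2142 and 1463 CPM in members with 3, 4 and 5. Transcripts of the list were still detected in most members: 68.8% (66.8 to 70.8) held at least 3 of the genes after thinning, against 90.5% of other cells.

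Megakaryocyte genes were lower (median log2 -0.72, 11 of 12 under 0). B cell genes had a median of -1.49 and all 10 were under 0, although 3 of 10 were above 0 when the rule was applied to thinned cells. Ebf1 (-2.11) and Pax5 (-2.16) encode factors of B cell commitment. Of the erythroid list the hemoglobin genes Hbb-bs (-2.35) and Hba-a1 (-2.54) were lowest, whereas Car1 (0.95) was higher, with 18.6% of its UMIs in 1 cell. Genes of early lymphoid priming had a median of -0.04 with 6 of 14 above 0, and of -0.26 with 4 of 14 above 0 when the rule was applied to thinned cells. Flt3 was at 355.5 against 369.5 CPM, Dntt, which adds bases at antigen receptor joints, at 128.5 against 140.6, and Satb1 at 273.1 against 217.8. Ccr9 (-1.51) and Il7r (-1.08) were at least 2-fold lower. After thinning, 76.2% of members and 61.2% of other cells held at least 3 lymphoid priming genes, and among members with 5 rule genes 61.7%.

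Of 11 surface genes of the gate and its subsets, 1 was at least 2-fold higher and 1 lower, against 1.39% and 5.36% of all genes. Kit was at 320.4 against 381.7 CPM, Cd34 at 328.9 against 288.5 and Ly6a, which encodes Sca-1, at 44.2 against 82.1 (log2 -0.89). Cd48, which marks committed multipotent progenitors, was at 163.3 against 76.9 CPM (log2 1.09). Csf3r, the receptor for granulocyte colony-stimulating factor, was at 90.4 against 81.1 CPM (0.16), and Il3ra had a log2 ratio of 0.56. Immediate early genes were lower, 12 of 12 under 0, with Egr1 at 12.5 against 27.6 CPM (-1.14), and so were 12 of 14 interferon response genes (median -0.36).

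Ranked by ratio among genes with at least 200 UMIs, the highest outside these lists were Iglc1, Iglv1, Wfdc21, Rab44, Igha, Anxa3, Nrp1, Slc22a4, Igsf6 and Gpr141. Iglc1 (log2 6.67), Iglv1 (6.11) and Igha (2.40) encode immunoglobulin chains and came from 1 wild-type member that held 3157 of 3179 Iglc1 UMIs, 1151 of Igha, 224 of Iglv1 and 411 of Jchain, the joining chain, beside 4 of Prtn3 and 1 of Mpo. Rab44, a large GTPase, was spread over 39.4% of members, at 56.4 against 10.6 CPM (log2 2.41, 2.30 to 2.52). Anxa3, an annexin of neutrophil granules, was at 17.9 against 3.76 CPM (2.25) and had a UMI in 14.2% of members, and the organic cation transporter gene Slc22a4 was at 5.54 against 1.26 (2.14). Nrp1 (2.15), Igsf6 (1.95) and Gpr141 (1.83) encode receptors of the cell surface. Of the Wfdc21 UMIs of either genotype's members, 75.0% were in 1 cell. The lowest, beside the hemoglobin genes, included the T lineage genes Trbc1 (-2.55), Lef1 (-2.47), Tcf7 (-2.35) and Themis (-2.32). Gria2 (-2.38), Cyp26b1 (-2.31), which degrades retinoic acid, and Mcc (-2.17) were also among the lowest. In all, 221 of 15877 genes (1.39%) were at least 2-fold higher in members and 851 (5.36%) at least 2-fold lower.

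Sin3b, the gene that had been targeted, was compared first between genotypes. Wild-type members had 1696 Sin3b UMIs, or 75.9 CPM (72.3 to 79.6), and knockout members 89 UMIs, or 20.4 CPM (16.4 to 25.1), which gave a log2 ratio of -1.89 (-2.22 to -1.59). In other tagged cells it was at 81.7 and 23.5 CPM. A Sin3b UMI was found in 57.6% of wild-type and 23.2% of knockout members, and in 19.4% and 7.14% after thinning, at median depths of 11663 and 12430.5 UMIs. The kit reads the 3' end of a transcript, and whether the deleted exons lie within what was counted was not analysed here. Its paralog Sin3a was at 73.7 and 67.3 CPM.

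Members made up a smaller share of knockout cells. They were 1757 of 11579 wild-type cells (15.2%, 14.5 to 15.8) and 336 of 4628 knockout cells (7.26%, 6.53 to 8.05), a difference of -7.91 percentage points (-8.89 to -6.90, Newcombe interval). Over all tagged cells, the wild-type median depth was 7001 UMIs and the knockout median 6588.5. After thinning, the shares were 4.405% (4.04 to 4.79) and 2.07% (1.68 to 2.53). The difference lay in cells with 3 rule genes, 12.0% and 5.92%, and with 4, 2.42% and 0.864%. Cells with all 5 were 0.734% (0.587 to 0.907) and 0.475% (0.298 to 0.719), a difference of -0.26 points whose interval ran from -0.49 to 0.02. At fixed depth they were 0.199% and 0.216%, with an interval of -0.12 to 0.21 points. Under another rule, the 80% hashtag rule, 1 tag had to hold 80% of at least 10 hashtag UMIs. It was applied to all barcodes called cells and not only to those tagged in the main result. It gave 6973 wild-type cells in place of 11579 and 1025 knockout cells in place of 4628. The member shares were then 16.6% (1157 of 6973) and 9.17% (94 of 1025). At least 4 rule genes were found in 3.15% of wild-type against 1.34% of knockout cells (-1.81 points, -2.26 to -1.33). After thinning these shares were 0.648% and 0.497% (-0.15 points, -0.38 to 0.13), and with the 80% hashtag rule 2.90% and 2.54%. For cells with all 5 rule genes the interval of the difference included 0. All these intervals cover counting error only, and none of the shares could be tested between genotypes. With 1 pool per genotype, fewer such cells, more of the other LSK cells and a difference between the mice or the staining cannot be told apart. The paper reports a larger proportion of long-term stem cells among knockout LSK cells.

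**Figure D4:**
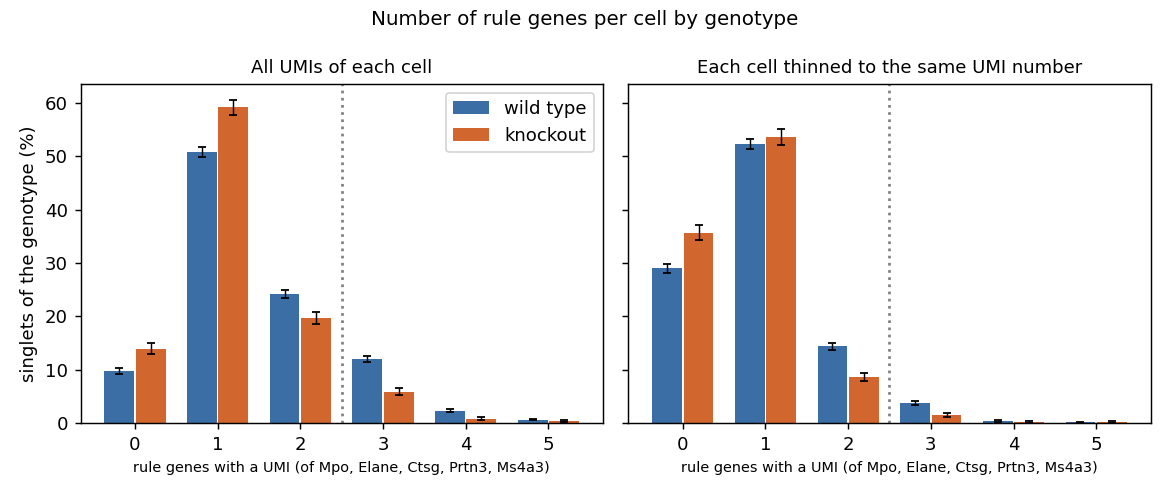
Percent of wild-type and knockout tagged cells (bars, exact 95% binomial interval) that held a UMI of 0 to 5 rule genes, at full depth on the left and with each cell thinned to 2921 UMIs on the right; members lie right of the dotted line. Wild-type cells had the larger share at 2 and at 3 rule genes in both panels.

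By gene, the detection of Mpo and Ctsg differed most between genotypes. Mpo was detected at full depth in 35.4% of cells from wild-type mice against 23.5% from knockout mice, and after thinning in 19.2% and 11.8%. Ctsg was detected in 17.9% and 8.21% at full depth and in 9.32% and 4.30% after thinning. The thinned shares of the other rule genes were closer: Prtn3 was detected in 62.95% and 58.6%, Elane in 1.87% and 1.32%, and Ms4a3 in 1.73% and 1.86%. In the 103 cells with B cell genes, the thinned shares were 7.77% for Ctsg (3.41 to 14.7) and 20.4% for Mpo (13.1 to 29.5). What free RNA adds to the difference between genotypes was not tested. The routes into membership differed accordingly. Of knockout members with exactly 3 genes, 63.5% held Mpo, Ctsg and Prtn3 and 24.1% Mpo, Prtn3 and Ms4a3. Ms4a3 was detected in 35.4% of knockout members (30.3 to 40.8) and 20.4% of wild-type members (18.5 to 22.3), and Ctsg in 73.2% and 87.9%.

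Within members, the summed level of the rule genes was 1486 CPM in wild-type and 1829 CPM in knockout cells. Elane was at 125.8 and 248.0 CPM (log2 0.98, 0.88 to 1.08), Ms4a3 at 35.7 and 62.5 (0.81), Mpo at 442.5 and 539.7 (0.29), Prtn3 at 594.7 and 677.8 (0.19) and Ctsg at 287.1 and 301.3 (0.07). These ratios mix cells with few and with many granule transcripts, and all 5 genes were present in 22 of 336 knockout and 85 of 1757 wild-type members. In members with 3 genes, Mpo was at 301.6 and 295.0 CPM, Prtn3 at 463.4 and 455.9 and Elane at 7.61 and 7.41, while Ctsg was lower in knockout cells at 217.6 and 147.5 (log2 -0.56) and Ms4a3 higher at 9.16 and 25.2 (1.46). In the cells with all 5 genes, 85 wild-type and 22 knockout, all 5 were higher in knockout cells: Mpo at 2063 and 2825 CPM (0.45), Elane at 1672 and 2636 (0.66), Ctsg at 1068 and 1554 (0.54), Prtn3 at 2114 and 2590 (0.29) and Ms4a3 at 323.1 and 411.6 (0.35). One knockout cell held 23.9% of the knockout Elane UMIs, and without the cell of each genotype that held most, the Elane ratio was 0.73. The direction depended on the hashtag rule. Median counts of the own and the other tag were 435 and 100 in wild-type members, and 236 and 90 in knockout members. The 80% hashtag rule gave 94 knockout members, which need not be a subset of the 336. What this change of cells has to do with the direction was not tested. The ratios were then -0.30 for Elane, -0.19 for Mpo, -0.48 for Ctsg, -0.09 for Prtn3 and 0.06 for Ms4a3. Under other hashtag rules Elane and Ctsg stayed above 0, at 1.03 and 0.13 with quantile 0.95. With the larger normalized tag as genotype they were at 1.45 and 0.44. With the quality and lineage filter, the Elane ratio was 2.03.

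Genes were then compared between genotypes within members. Among 12347 genes with at least 50 UMIs over both pools the median knockout to wild-type log2 ratio was -0.01, with 98 genes (0.794%) at least 2-fold higher and 232 (1.88%) at least 2-fold lower. In other tagged cells the median ratio of the same 12347 genes was -0.003. There the ratio lay on the same side of 0 for 92 of the 98 and 212 of the 232. It was also 2-fold or more in that direction for 42 and 90, and the share of all genes past 2-fold there is not given. Within members, the medians were 0.07 for the early granule partners (2 of 15 at least 2-fold higher), 0.10 for the myeloid factors and 0.31 for monocyte and dendritic genes. They were 0.03 for S phase, -0.09 for G2 and mitosis and 0.09 for protein folding. S phase genes numbered 0 of 44 past 2-fold in either direction, and genes of G2 and mitosis 0 of 52. Stem cell genes had a median of 0.10 in members and 0.42 in other cells. By number of rule genes, their summed level was 2180 CPM in wild-type and 2503 CPM in knockout members with 3 (log2 0.20), 2213 and 1661 with 4 (-0.41), and 1703 and 577.8 with 5 (-1.56, -1.76 to -1.36). In the cells with 5 rule genes Hlf was at 241.3 and 66.5 CPM and Mecom at 378.5 and 130.4. That comparison rests on 22 knockout cells.

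Some single myeloid genes were higher in knockout members, and others were not. In members with 3 rule genes Plac8 was at 1133 CPM in wild-type and 840.4 in knockout cells (log2 -0.43). The summed early neutrophil partners were at 3089 and 2721 CPM there (-0.18). With 5 rule genes these ratios were 0.43 and 0.31. F13a1 was at 24.3 CPM in wild-type and 75.1 in knockout members (log2 1.63, 1.43 to 1.83), and at a log2 ratio of 0.05 in other tagged cells. In members with 3 rule genes it was at 10.7 and 13.3 CPM and in those with 5 at 104.0 and 626.4. Of its 328 UMIs in all knockout members, 245 were in cells with 5 rule genes, and 29.9% were in 1 cell. Without the cell of each genotype that held most, the F13a1 ratio in members was 1.27. Hp was at 10.7 and 30.9 CPM (1.54), with ratios of 2.02, 1.89 and 0.75 in members with 3, 4 and 5 rule genes, and 1.48 in other cells. Clec12a was at 37.9 and 77.4 (1.03), with ratios of 0.93, 1.12 and 0.84 in those members, 0.76 in other tagged cells and 0.97 without the cell of each genotype that held most. Cebpe was at 2.19 and 7.33 CPM (1.75) on 49 and 32 UMIs, and Cebpa at 18.4 and 25.4 (0.47). Of the 32 knockout Cebpe UMIs, 24 were in cells with 5 rule genes and 10 in the knockout member with most S100a8. The Cebpe ratio was 1.40 without the cell of each genotype that held most. S100a8, at 65.5 and 210.7 CPM, had 92.7% of its wild-type and 90.9% of its knockout UMIs in 1 cell of each, and its ratio was -4.53 with the stricter hashtag rule.

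Of 14 genes of lymphoid priming, 3 were at least 2-fold lower in knockout members and 0 higher, against 1.88% and 0.794% of all genes. Of the 14, 13 were under 0 (median -0.31 in members, -0.26 in other cells). Dntt was at 141.7 CPM in wild-type and 60.9 in knockout members (log2 -1.22, -1.40 to -1.04). The Dntt ratio was -1.35 in members with 3 rule genes, -0.06 (-0.51 to 0.34) with 4 and -3.54 with 5, the last on 2 knockout UMIs. At fixed depth 78.1% of wild-type members (76.1 to 80.1) and 65.8% of knockout members (60.4 to 70.8) held at least 3 genes of that list. At full depth, at least 3 B cell genes were found in 25 of 1757 wild-type members (1.42%) and in 0 of 336 knockout members. The count of 0 allows a share of up to 0.893% by 3 counts, or 1.09% by the exact interval. After thinning, the counts were 4 and 0. The summed B cell list was at 45.6 CPM in wild-type and 25.2 in knockout members. In other tagged cells it was higher in knockout cells, at 59.5 and 159.0 CPM. Cd48 was at 172.2 and 117.9 CPM (-0.54), Il18r1, a chain of the interleukin-18 receptor, at 33.0 and 13.97 (-1.23), and the immediate early gene Egr1 at 13.9 and 5.04 (-1.44), one of 11 of 12 such genes under 0.

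**Figure D5:**
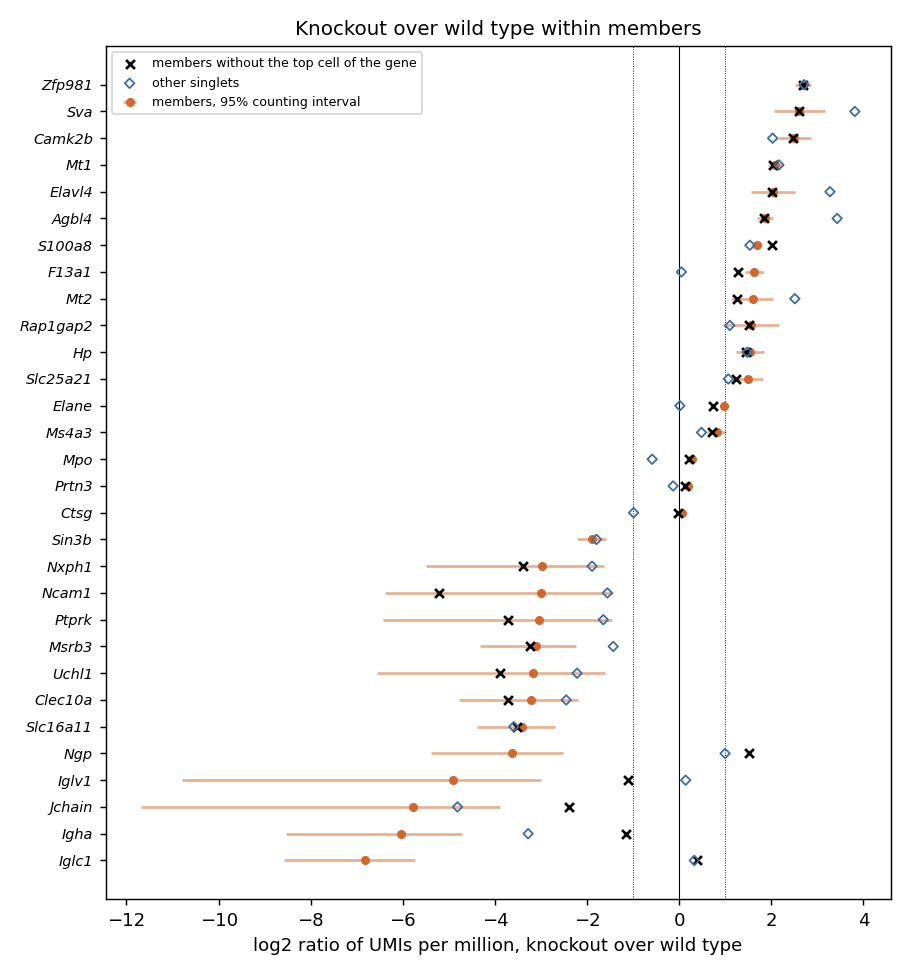
Log2 ratio of knockout over wild-type CPM within members (orange, 95% counting interval) for the 12 highest and 12 lowest genes with at least 100 UMIs, the rule genes and Sin3b, with the ratio in other tagged cells (blue diamonds) and in members without the cell of each genotype holding most UMIs of that gene (crosses). Ratios of Ngp, Iglc1, Igha, Iglv1 and Jchain shift by over 3 on the log2 scale without that cell.

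The genes with the largest ratios between genotypes were mostly not myeloid. Highest, beside S100a8, F13a1 and Hp, were Zfp981, a zinc finger gene, at 20.9 CPM in wild-type and 134.9 in knockout members (log2 2.69), Sva (2.61), Camk2b, a subunit of a calcium-dependent kinase, at 5.46 and 30.9 (2.501), the metallothionein gene Mt1 at 31.4 and 133.5 (2.09, 1.93 to 2.25), Elavl4, an RNA-binding protein of neurons (2.04), Agbl4 (1.87), Mt2 (1.59), Rap1gap2 (1.57) and Slc25a21 (1.49). Each was also above 1 in other tagged cells, from 1.07 for Slc25a21 to 3.81 for Sva. With the larger normalized tag as genotype, Mt2 (0.77) and Slc25a21 (0.65) were under 2-fold, and so they were with the quality and lineage filter (0.91 and 0.56). With at least 4 rule genes Agbl4 was at 0.81, with 5 rule genes Agbl4 (-1.08) and Slc25a21 (-2.37) were lower in knockout cells, and with the rule applied to thinned cells Rap1gap2 was at 0.85. Metallothioneins bind zinc and other metals, and Mt1 was higher in knockout members with 3, 4 and 5 rule genes alike, by 2.09, 2.16 and 1.89. Lowest were Iglc1, Igha, Jchain, Iglv1 and Ngp, which rest on the 2 wild-type cells described above. Slc16a11, of the monocarboxylate transporter family, followed at 33.2 CPM in wild-type and 2.98 in knockout members (log2 -3.42, -4.39 to -2.69), with Clec10a, a lectin of macrophages and dendritic cells (-3.22), Uchl1 (-3.17), Msrb3, which repairs oxidized methionine (-3.11), Ptprk (-3.04), the adhesion molecule gene Ncam1 (-3.002) and Nxph1 (-2.98). These 7 ranged from -3.59 to -1.43 in other tagged cells.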

How the data were processed

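Gene expression and hashtag counts had been measured in LSK cells with the 10x Chromium 3' v3 kit. The authors deposited raw UMI counts per gene and barcode, made with Cell Ranger. The submitters' processing notes name Cell Ranger, Seurat and DESeq2 and the build mm9. The alignment parameters and the transcript annotation were not stated. The homeostasis matrix held 32285 genes and 2 hashtags over 6794880 unfiltered barcodes. A list of its gene names was not among the files used here, so each row took the name that the 5-FU matrix lists for it. Log counts of both matrices correlated at 0.919 in that order and at most 0.393 when shifted by 1 to 3 rows.

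A barcode was a cell at 2921 or more gene UMIs (10% of the 0.99 quantile of the 10000 largest), which left 23931. Of these, 76 (0.318%) also occur among the 12753 barcodes of the 5-FU matrix. Genotypes were assigned from hashtag counts with HTODemux (Seurat 5.3.0, R 4.3.3) at quantile 0.99: 11579 wild type, 4628 knockout, 1441 with both tags and 6283 with none, and the last 2 groups were left out. The map of hashtags to genotypes comes from the study's methods. Counts were summed per pool: 22352961 UMIs in wild-type and 4367187 in knockout members, 108283340 in all other tagged cells.

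Levels are UMIs per 1000000 of the pool (CPM). Log2 ratios have 0.5 counts added and exact conditional binomial intervals. With 1 pool of cells per genotype no test was run; a gene was called at 2-fold or more with at least 50 UMIs over both pools. Thinning drew UMIs without replacement. The scripts were tested on simulated data. Computations used Python 3.11.15, numpy 2.4.6, scipy 1.17.1, pandas 2.3.3 and statsmodels 0.14.6.

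The members and the gene lists were chosen with earlier results of these data known. Named genes were any gene of the lists, the 15 highest and 10 lowest ratios of members over other cells (at least 200 UMIs) and the 12 highest and 12 lowest of knockout over wild type (at least 100 UMIs), without predicted genes and the rule genes. Genome neighbours and motifs were chosen after seeing values. Alternatives covered the UMI minimum, hashtag rule, number of rule genes, depth, quality filter, scaling and weighting. Some genes of the lists are not reported here.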

Additional observations from a re-analysis of the deposited data

Results flagged for a closer look

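Barcodes without a genotype also carried the rule genes. Of the 6283 barcodes with no tag, 463 (7.37%) held a UMI of at least 3 rule genes. The share was 12.9% in all tagged cells, 15.2% in wild-type and 7.26% in knockout cells. The 463 barcodes had a median depth of 9242 UMIs. Elane was at 371.9 CPM and Mpo at 714.3 CPM in them. These levels were above those of wild-type members (125.8 and 442.5) and of knockout members (248.0 and 539.7). Sin3b was at 30.7 CPM (25.9 to 36.02), nearer the 20.4 CPM of knockout members (16.4 to 25.1) than the 75.9 CPM of wild-type members (72.3 to 79.6). All 5 rule genes were present in 38 of these barcodes, against 107 of the tagged cells.

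Of the 1441 barcodes with both tags, 355 (24.6%) met the rule. Their median depth was 15444 UMIs, and Sin3b was at 59.5 CPM. With each barcode thinned to 2921 UMIs the share that met the rule was 6.32% among barcodes with both tags, 2.72% among untagged ones, 3.74% among tagged cells and 3.88% (1.07 to 9.65) among the cells with B cell genes. In untagged barcodes with fewer rule genes Sin3b was at 28.8 CPM. In other tagged cells it was at 81.7 CPM in wild-type and 23.5 in knockout cells. When every barcode without both tags took its larger normalized tag, 12087 counted as wild type and 10403 as knockout. Whether untagged barcodes belong to either genotype was not tested.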

How the results depend on the processing

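The knockout share of members over the wild-type share was 0.478 (0.428 to 0.535) and stayed under 1 in every alternative run. It was 0.553 when a tag had to hold 80% of at least 10 hashtag UMIs, 0.685, 0.425 and 0.648 with at least 2, at least 4 and 5 rule genes (the last with an interval from 0.406 to 1.03), and 0.393 with 2 UMIs per rule gene. The same ratio for cells with 1 gene more than the rule needs was 0.425, and 0.876 under the 80% hashtag rule (0.585 to 1.31), 0.648 at 4 genes and 0.767 after thinning (0.482 to 1.22). The Sin3b ratio of -1.89 was -1.56 with the rule applied to thinned cells.

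The 98 genes at least 2-fold higher in knockout members became 200 under the 80% hashtag rule, 164 with at least 2 rule genes, 278 with 20 UMIs and 2202 with no minimum. The 232 lower became 372 with at least 4 rule genes, 470 with 20 UMIs and 1243 with no minimum. Median-of-ratios scaling gave 101 and 229. For members over other cells, the 221 higher became 369 at 4 rule genes, 858 at 5 and 1702 with no minimum. The 851 lower became 488 at 2 rule genes, 2185 at 5, 1674 after thinning, 1320 with 20 UMIs and 2398 with no minimum. With fewer UMIs required, more genes with few counts enter.

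Leaving out, for each gene, the cell of each genotype with most of its UMIs was chosen after seeing the data. It kept 81 of the 98 and 228 of the 232 genes past 2-fold. Among the 12193 genes that still had at least 50 UMIs, 75 were then at least 2-fold higher and 304 lower. Among 704 values of 59 single-gene ratios under alternatives, 41 changed direction: 30 of genes at least 2-fold apart, most of them immunoglobulin genes or Ngp, and 11 of the rule genes Ctsg, Elane, Mpo and Prtn3. Another 25 kept their direction but were no longer 2-fold. The rule genes' genotype ratios turned under the 80% hashtag rule (values above), with at least 2 rule genes for Ctsg (-0.37), Mpo (-0.09) and Prtn3 (-0.04), and under 4 more alternatives for Ctsg, with values from -0.06 to -0.02. Knockout over wild type, Iglc1 became 0.81 under the 80% hashtag rule, 0.30 at 5 rule genes, 1.85 with 2 UMIs per gene, 1.12 after thinning, 1.16 with the quality filter and 0.40 without its top cell. Iglv1 became 2.02, 1.88, 1.36 and 2.34 under the first 4 of these, Igha 0.62 and 3.47 under the first 2, and Jchain 0.30 at 5 rule genes. Ngp became 0.91 at 2 rule genes, 3.70 at 4, 3.11 at 5, 3.72 with 2 UMIs per gene, 2.83 after thinning, 2.63 with the quality filter and 1.51 without its top cell. S100a8 became -4.53 under the 80% hashtag rule. At 5 rule genes Agbl4 became -1.08 and Slc25a21 -2.37; the cause was not tested. Members over other cells, Iglc1 became -4.92 at 5 rule genes, -5.38 after thinning and -0.41 without its top cell, Igha -4.26 and -3.63, and Iglv1 -0.41 and -2.45, at 5 rule genes and after thinning.

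No paired analysis was possible because each genotype is 1 pool and the labels number no replicates. The knockout pool of 336 members limits genes with few UMIs, and the 22 knockout cells with all 5 rule genes limit every comparison made in them. Genotype, mouse, hashtag antibody and staining vary together.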
